A study of Rattus norvegicus with 16 samples.

Results

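NAD carries electrons in energy metabolism and is also used up by enzymes that cleave it, so cells rebuild it all the time. Most tissues do so by salvage: Nampt turns nicotinamide into nicotinamide mononucleotide, and the Nmnat enzymes turn that into NAD, while Naprt starts a parallel route from nicotinic acid and the NAD kinases make NADP. Nnmt draws on the same nicotinamide, since it methylates it with S-adenosylmethionine as the methyl donor and so takes it out of salvage, and the kidney tubule is known for a high demand for NAD. The genes described here are Nnmt, Nampt, Naprt, Nmnat1, Nmnat2, Nmnat3, Nadk, Nadk2, Sirt1 and Parp1, and they were chosen by name from this pathway around Nnmt. Nnmt itself was chosen by its measured levels, which in NRK-52E were higher at pH 6.0 than at pH 7.4 and in NRK-49F were lower. Of these 10 genes, 9 had a row among the 32623 genes counted, and Sirt1 was not analysed here. The values of Nnmt are therefore given as a description with no test, while the other members were tested in a fit across all genes.

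The data are fragment counts per gene from 16 RNA-seq libraries of 2 rat kidney cell lines kept in indirect co-culture, with total counts from 16201084 to 34784862 per library. NRK-52E, an epithelial line described as derived from proximal tubule, grew on permeable filter inserts above NRK-49F, a fibroblast line, on the bottom of the well. All cultures spent 24 h without added serum and then 48 h in medium of pH 7.4 (control) or pH 6.0 (acidosis), and each line was harvested apart, which gives 4 groups of 4 libraries. Libraries N1, N2, N5 and N6 are NRK-52E at pH 7.4, N3, N4, N7 and N8 are NRK-52E at pH 6.0, N9, N10, N13 and N14 are NRK-49F at pH 7.4, and N11, N12, N15 and N16 are NRK-49F at pH 6.0. Each cell type is represented by a single established line, every culture held both lines, and the methods allow that a few fibroblasts may have adhered under the filter. Line and growth support went together in every culture, so their parts in any difference between the lines cannot be told apart. The labels do not say whether libraries came from separate cultures, so the p-values measure the spread between these libraries, which may be technical. Levels are given as fragments per 1000000 mapped fragments (FPM) with SD over n = 4 libraries, after scaling by the trimmed mean of M values (TMM), in the order of the library numbers above.

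The labels of the lines were checked against 10 epithelial and 10 fibroblast markers. The tight junction genes Ocln and Tjp3 marked NRK-52E, with 41.2 ± 2.04 and 17.3 ± 1.57 FPM at pH 7.4 against 0 and 1.32 ± 0.377 FPM in NRK-49F. The fibroblast receptor Pdgfra marked NRK-49F, with 392 ± 54.7 FPM at pH 7.4 and 368 ± 155 FPM at pH 6.0, against 26 and 4 counts in all over the 4 libraries of NRK-52E at the same pH. At pH 7.4, 6 of the 9 fibroblast markers tested were called lower in NRK-52E by the rule given below (Col1a1, at 23.6 against 6205 FPM, Fn1, Lum, Pdgfra, Pdgfrb and Postn) and 1 higher, and 3 of the 6 epithelial markers tested were called higher (Cdh1, Ocln and Tjp3) and 2 lower, with 33.3% of all genes tested called in each direction. The 3 that went against the labels were Krt8 (848 FPM in NRK-49F against 430 FPM in NRK-52E), Cldn1 and the fibrillar collagen Col3a1, which was higher in NRK-52E (6221 against 458 FPM). Cdh1 went with the label but was low, at 1.62 ± 0.221 FPM in NRK-52E at pH 7.4. Cdh1 and Ocln were below the filter on low counts in NRK-49F, and Cldn1, Lum and Pdgfra in NRK-52E. These entered the comparison by their counts in the other line. The filter thus favoured the direction found for them, and counts without them are not given here. Esrp1 and Thy1 had no count in any library, and Epcam had at most 2 counts per group. The summed epithelial markers, led by Krt8, were at 493 FPM in NRK-52E at pH 7.4, 370 at pH 6.0, 852 in NRK-49F at pH 7.4 and 208 at pH 6.0. The summed fibroblast markers, led by Col3a1 in NRK-52E and by Fn1 or Col1a1 in NRK-49F, were at 6787, 2920, 18373 and 16416 FPM in the same order. The epithelial sum was lower at pH 6.0 in both lines and the fibroblast sum in NRK-52E, with no overlap between libraries, whereas the fibroblast sum of NRK-49F at pH 6.0 lay within its range at pH 7.4. In NRK-52E, 4 of the 5 epithelial markers tested were called lower at pH 6.0 (Cdh1, Krt8, Krt19 and Ocln, the last from 41.2 to 9.67 FPM), Tjp3 was called higher (1.32 on the log2 scale), and 6 of the 7 fibroblast markers tested were called lower, with 28.2% of all genes called higher and 28.5% lower. In NRK-49F, 4 of the 8 fibroblast markers tested were called lower (Col3a1, Fn1, Lum and Pdgfrb), with 19.4% of all genes called lower. Col1a1 was at 6205 and 8288 FPM there with no overlap and was not called (0.40). Of the 4 epithelial markers tested in this line, 2 were called lower, Krt8 (-2.06) and Cldn1. Cldn1 had no count at pH 6.0 and entered by its counts at pH 7.4. Cdh1 went the other way, from 0 counts at pH 7.4 to 22 in all at pH 6.0, and was not tested in edgeR. The part of these sums in the changes below was not tested. In these bulk libraries, fewer cells of a kind and less RNA per cell cannot be told apart. Of the 3 endothelial markers counted, Tek alone passed 1 FPM, at 41.1 ± 4.14 in NRK-52E at pH 7.4 and 7.02 ± 0.971 at pH 6.0, Kdr had no count, and the endothelial sum had group means under 1 FPM in NRK-49F. The 4 leukocyte markers summed to 1.99 and 3.46 FPM in NRK-52E at pH 7.4 and pH 6.0. Cd68 made up 1.72 and 2.38 FPM of these sums and was not called for pH in this line. Csf1r was called higher at pH 6.0 there (edgeR FDR 0.000168). In NRK-49F the 4 markers summed to 81.2 and 243 FPM, nearly all of it from Cd68. Ptprc, which marks all leukocytes, had no count in any library.

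Nnmt (ENSRNOG00000005930, chromosome 8) stood at 2.86, 2.87, 2.98 and 2.57 FPM in the 4 NRK-52E libraries at pH 7.4 and at 19.0, 17.2, 18.2 and 14.8 FPM in those at pH 6.0. In NRK-49F the gene was at 16.7, 19.9, 21.9 and 21.3 FPM at pH 7.4 and at 7.31, 6.70, 5.75 and 5.13 FPM at pH 6.0. The ranges at pH 7.4 and pH 6.0 lay apart in each line, in opposite directions. The group means were 2.82 ± 0.176 and 17.3 ± 1.83 FPM in NRK-52E at pH 7.4 and pH 6.0, and 19.9 ± 2.32 and 6.22 ± 0.969 FPM in NRK-49F. As a log2 fold change from pH 7.4 to pH 6.0, this was 2.59 (SE 0.15) in NRK-52E and -1.70 (SE 0.16) in NRK-49F. From highest to lowest, the order was NRK-49F at pH 7.4, NRK-52E at pH 6.0, NRK-49F at pH 6.0 and NRK-52E at pH 7.4. The libraries of the first and second of these groups overlapped, every other pair of neighbours was separate, and the highest mean was 7.07 times the lowest. The line with more Nnmt therefore changed with the medium, with a log2 difference of NRK-52E against NRK-49F of -2.73 (SE 0.14) at pH 7.4 and 1.47 (SE 0.18) at pH 6.0. All of these values belong to the pattern for which the gene was chosen.

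**Figure D1:**
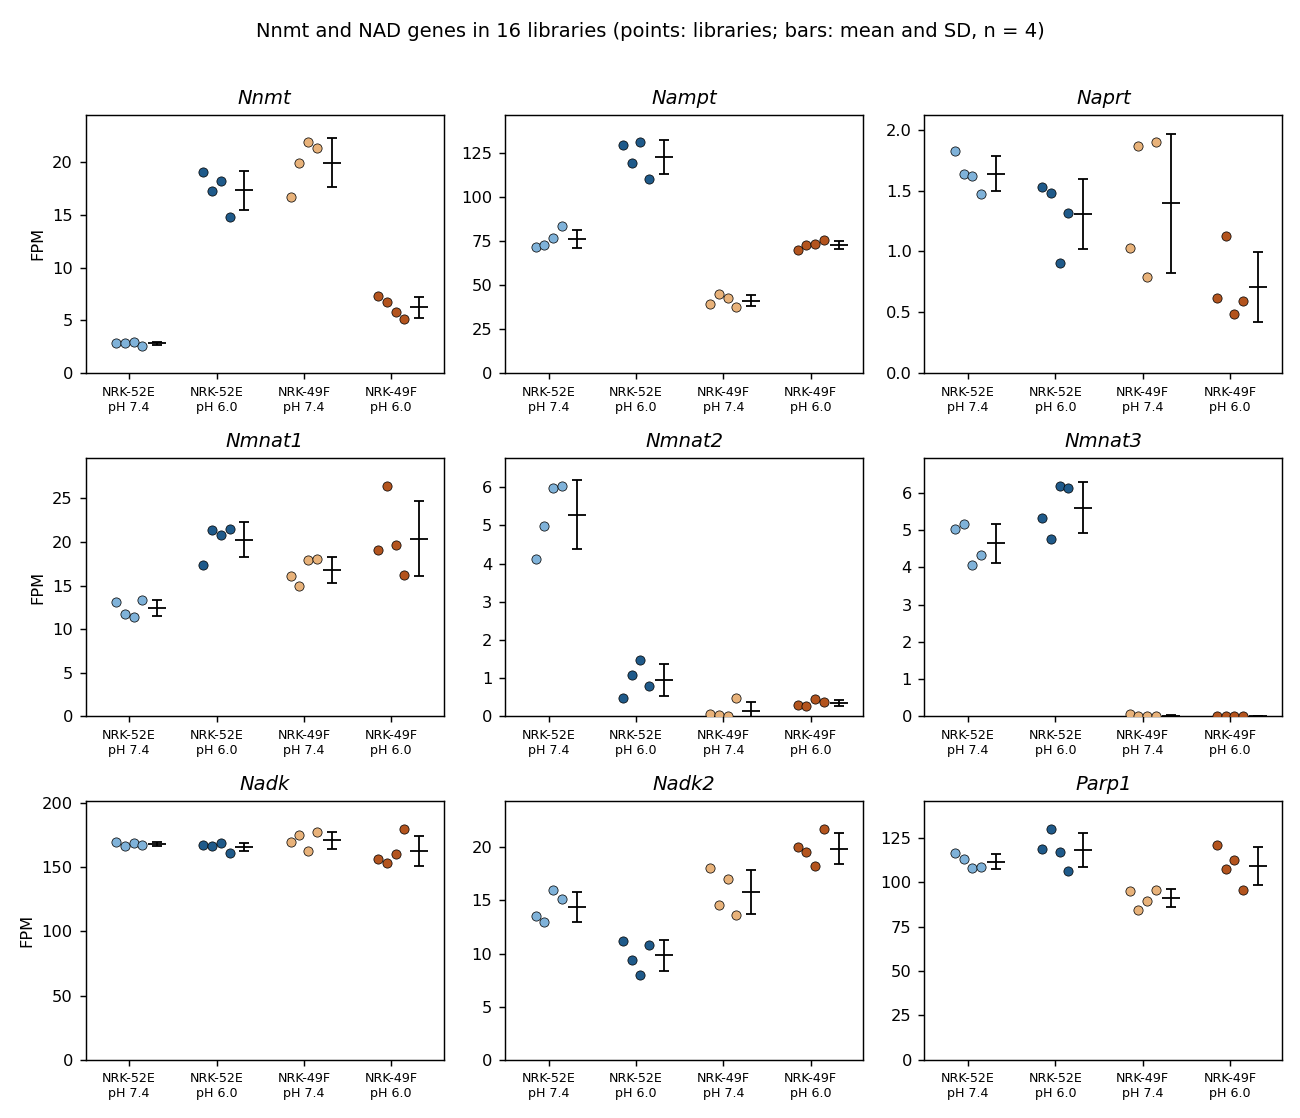
FPM of the 9 genes with counts (vertical axes, each from 0) in the 4 groups of cell line and pH (horizontal axes). Points are libraries in the order of their numbers, bars are the mean and SD of 4. Nnmt was high in NRK-52E at pH 6.0 and in NRK-49F at pH 7.4, Nampt was higher at pH 6.0 in both lines, and Nmnat3 had at most 1 count per library in NRK-49F.

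The first question was which other members responded to acidosis in the epithelial line. A gene was called where the false discovery rate (FDR, Benjamini-Hochberg over all genes tested) was below 0.01 in both edgeR's quasi-likelihood test and DESeq2's Wald test. In NRK-52E, 2 of the 8 other members rose at pH 6.0 (Nampt and Nmnat1) and 2 fell (Nmnat2 and Nadk2). Of all 13735 genes tested in this line, 28.2% were called higher and 28.5% lower at pH 6.0, so these counts lie near the background. In NRK-49F, 6 of the 8 had enough counts to be tested, 1 rose (Nampt) and 0 fell by either tool, with 3 higher and 1 lower at an unadjusted edgeR p below 0.05. Among all 13339 genes tested in NRK-49F, 18.4% were called higher and 19.4% lower.

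Nampt (ENSRNOG00000009754, chromosome 6), the rate-limiting enzyme of nicotinamide salvage, was at 71.7, 72.7, 77.0 and 83.5 FPM in NRK-52E at pH 7.4 and at 130, 120, 131 and 110 FPM at pH 6.0. In NRK-49F it was at 39.6, 45.1, 42.7 and 37.8 FPM at pH 7.4 and at 70.0, 72.7, 73.4 and 75.7 FPM at pH 6.0. Every library at pH 6.0 was above every library of the same line at pH 7.4. The rise was 0.67 on the log2 scale in NRK-52E (SE 0.09, edgeR FDR 7.47e-05) and 0.81 in NRK-49F (SE 0.09, edgeR FDR 2.13e-05). The effects of the lines differed by -0.15 (SE 0.12), which did not pass the test (edgeR FDR 0.317). Nampt was also higher in NRK-52E than in NRK-49F at either pH, by 0.97 (SE 0.09, edgeR FDR 1.26e-06) at pH 7.4 and by 0.74 (SE 0.10, edgeR FDR 2.74e-05) at pH 6.0. NRK-52E at pH 7.4 and NRK-49F at pH 6.0 overlapped, with means of 76.2 and 72.9 FPM. In NRK-52E the call was lost within the 4 libraries that carry the number 22 in their column names (0.57), whereas it was kept within those that carry 21 (0.75). These numbers split each group in 2 and their meaning is not given in the sources used here.

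Naprt, which starts salvage from nicotinic acid, had only 12 to 48 counts per library. Its FPM were 1.83, 1.64, 1.62 and 1.48 in NRK-52E at pH 7.4 and 1.53, 1.48, 0.902 and 1.32 at pH 6.0, and the groups overlapped. In NRK-49F they were 1.03, 1.87, 0.790 and 1.90 at pH 7.4 and 0.620, 1.13, 0.487 and 0.594 at pH 6.0, again with overlap and with a wide spread at pH 7.4. The log2 change of -1.07 (SE 0.39) in NRK-49F missed the threshold (edgeR FDR 0.0354), as did that of -0.35 (SE 0.25) in NRK-52E (edgeR FDR 0.223).

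The 3 Nmnat genes encode the enzymes that make NAD from its mononucleotide in different compartments, Nmnat1 in the nucleus, Nmnat2 at the Golgi and in the cytosol, and Nmnat3 in mitochondria. They did not follow a common pattern. Nmnat1 (ENSRNOG00000015962, chromosome 5) was at 13.1, 11.8, 11.4 and 13.4 FPM in NRK-52E at pH 7.4 and at 17.3, 21.4, 20.8 and 21.5 FPM at pH 6.0, with no overlap. It rose by 0.69 on the log2 scale (SE 0.13, edgeR FDR 0.000589), although neither of the 2 subsets of these libraries alone passed the threshold (0.60 within number 21 and 0.75 within number 22). In NRK-49F it was at 16.1, 14.9, 18.0 and 18.0 FPM at pH 7.4 and at 19.1, 26.5, 19.7 and 16.3 FPM at pH 6.0, where library N12 was highest and N16 lay within the control range. The log2 change there was 0.26 (SE 0.16, edgeR FDR 0.177), and the difference between the effects of the lines was 0.41 (SE 0.20, edgeR FDR 0.0926). Neither passed the test. At pH 7.4 Nmnat1 was at a log2 difference of -0.35 in NRK-52E against NRK-49F (SE 0.11), with no overlap, which passed in DESeq2 (adjusted p 0.00684) but not in edgeR (FDR 0.0141).

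Nmnat2 (ENSRNOG00000027697, chromosome 13), best known for its part in keeping axons alive, was at 4.12, 5.00, 5.97 and 6.05 FPM in NRK-52E at pH 7.4 and at 0.489, 1.08, 1.48 and 0.799 FPM at pH 6.0. The highest library at pH 6.0 lay well below the lowest at pH 7.4. The gene fell by 2.45 on the log2 scale in NRK-52E (SE 0.30, edgeR FDR 3.33e-05), with mean levels of 5.28 ± 0.909 and 0.961 ± 0.419 FPM. The call was kept in each of the 8 fits that left out a library, with log2 changes from -2.72 to -2.26. In NRK-49F it had 1, 1, 0 and 12 counts in the libraries at pH 7.4 and 7, 4, 14 and 12 counts in those at pH 6.0. These were too few for the filter on low counts, so the pH effect in this line was not tested in edgeR, and 12 of the 14 counts at pH 7.4 came from library N14.

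Nmnat3 (ENSRNOG00000013585, chromosome 8) differed between the lines. In NRK-52E it was at 5.01, 5.16, 4.06 and 4.33 FPM at pH 7.4 and at 5.32, 4.76, 6.19 and 6.11 FPM at pH 6.0, and the groups overlapped (log2 change 0.25, SE 0.17, edgeR FDR 0.217). In NRK-49F the 4 libraries at pH 7.4 held 1 count in all, in N9, and those at pH 6.0 held 0. With 422 counts against 1 at pH 7.4, the mean FPM in NRK-52E was 325 times that in NRK-49F, and the ratio of the summed counts, each over the summed sizes of its libraries, was 361, with a 95% counting interval from 64.5 to 14296. At pH 6.0, with 474 counts against 0, this ratio was at least 188, set against a floor of 3 counts over the NRK-49F group. Such intervals and floors cover counting error only.

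The NAD kinases add a phosphate to NAD to make NADP, Nadk in the cytosol and Nadk2 in mitochondria. Nadk varied little between groups, its highest mean being 1.05 times its lowest, with group means of 168 ± 1.64, 166 ± 3.26, 171 ± 6.64 and 162 ± 11.9 FPM in NRK-52E at pH 7.4 and pH 6.0 and NRK-49F at pH 7.4 and pH 6.0. All 4 groups overlapped with their neighbours, and no comparison of Nadk passed the test, although scaling by library totals alone gave a called difference of 0.36 on the log2 scale between the lines at pH 7.4. Nadk2 (ENSRNOG00000054157, chromosome 2) was at 13.54, 12.9, 16 and 15.1 FPM in NRK-52E at pH 7.4 and at 11.2, 9.35, 7.99 and 10.8 FPM at pH 6.0. In NRK-49F it was at 18.0, 14.6, 17.0 and 13.6 FPM at pH 7.4 and at 20, 19.6, 18.2 and 21.7 FPM at pH 6.0. The libraries at pH 6.0 lay below those at pH 7.4 in NRK-52E and above them in NRK-49F, with no overlap in either line. Nadk2 fell by 0.57 on the log2 scale in NRK-52E (SE 0.16, edgeR FDR 0.00802), whereas the change of 0.32 in NRK-49F (SE 0.13) missed the threshold (edgeR FDR 0.0531). The call in NRK-52E was close to the limit and was kept in only 2 of the 8 fits that left out a library. It ended without N1 (-0.61), N2 (-0.62), N4 (-0.56), N5 (-0.54), N6 (-0.57) or N7 (-0.47), with the number in the column names as a covariate (-0.57), and within number 21 (-0.41) or 22 (-0.75).

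Parp1, the main poly(ADP-ribose) polymerase and a consumer of NAD after DNA damage, had means of 112 ± 4.09 and 118 ± 9.73 FPM in NRK-52E at pH 7.4 and pH 6.0. In NRK-49F the means were 91.1 ± 5.32 and 109 ± 10.8 FPM. The groups overlapped in each line. The log2 change was 0.06 (SE 0.08, edgeR FDR 0.508) in NRK-52E and 0.25 (SE 0.09, edgeR FDR 0.0425) in NRK-49F. Neither passed the threshold, but within the NRK-49F libraries that carry the number 20 the change was called (0.35).

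**Figure D2:**
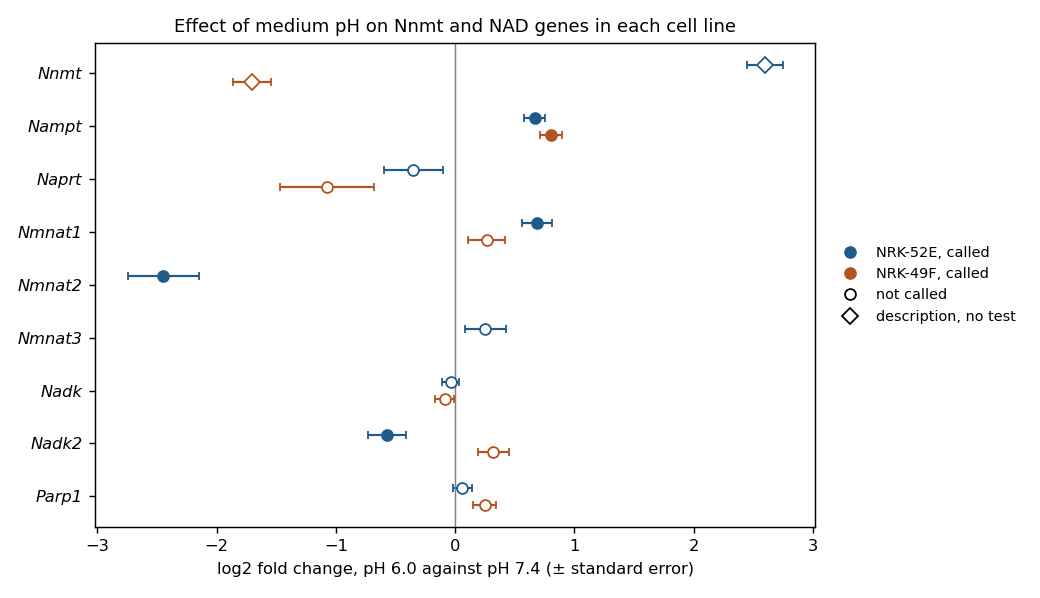
Log2 fold change from pH 7.4 to pH 6.0 (horizontal axis) with its standard error for each gene (vertical axis) in NRK-52E (blue) and NRK-49F (orange). Filled points were called by both tools, open points were not, diamonds mark Nnmt, which was not tested, and Nmnat2 and Nmnat3 have no point in NRK-49F for want of counts. Nampt lies to the right of 0 in both lines, and Nadk2 lies on opposite sides.

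The second question was how the lines differed at the same pH. At pH 7.4, 4 of the 8 other members were higher in NRK-52E than in NRK-49F (Nampt, Nmnat2, Nmnat3 and Parp1) and 0 were lower by both tools. Nmnat2 and Nmnat3 were below the filter on low counts in NRK-49F and entered this comparison and that at pH 6.0 by their counts in NRK-52E, so the filter favoured this direction for them, and without them 2 were higher and 0 lower. By DESeq2 alone 1 was lower, and 1 was lower at an unadjusted edgeR p below 0.05. Of all 14026 genes tested, 33.3% were called higher and 33.3% lower in NRK-52E. Parp1 differed by 0.37 on the log2 scale (SE 0.07, edgeR FDR 0.000333), and its libraries at pH 7.4 did not overlap between the lines. Nmnat2 differed by 4.96 (SE 0.50, edgeR FDR 3.35e-06). Without N14, Nmnat2 had 481 counts in NRK-52E against 2 in NRK-49F, a ratio of summed counts of 139 with a 95% counting interval from 38.2 to 1150.

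At pH 6.0, 3 of the 8 were higher in NRK-52E (Nampt, Nmnat2 and Nmnat3) and 1 was lower (Nadk2). Without Nmnat2 and Nmnat3, 1 was higher and 1 lower. The background was 28.6% of 13796 genes called higher and 31.3% called lower. Nadk2 was lower by a log2 difference of -1.03 (SE 0.16, edgeR FDR 0.000106), with means of 9.83 ± 1.45 FPM in NRK-52E and 19.9 ± 1.46 FPM in NRK-49F. At pH 7.4 the difference of this gene was -0.05 (SE 0.13, edgeR FDR 0.747). Nmnat2 was higher by 1.41 (SE 0.40, edgeR FDR 0.00768), and its libraries did not overlap between the lines. That call was kept in 1 of the 8 fits that left out a library, the one without N3 (1.63), and was lost without N4 (1.38), N7 (1.15), N8 (1.49), N11 (1.34), N12 (1.31), N15 (1.54) or N16 (1.42), with no filter on low counts (1.41) and with all 16 libraries in 1 fit (1.40). Parp1 differed by 0.10 (SE 0.11, edgeR FDR 0.439) at this pH and did not pass.

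The third question was whether the lines responded differently to acidosis, tested as an interaction in 1 model of all 16 libraries (log2 effect in NRK-52E minus that in NRK-49F). Among the 8 other members, 0 had a more positive and 2 a more negative effect in NRK-52E, by both tools together and by each alone, and at an unadjusted edgeR p below 0.05 the counts were also 0 and 2. The 2 were Nadk2 and Nmnat2. Nmnat2 was below the filter on low counts in NRK-49F and entered this test by its counts in NRK-52E. Without it, Nadk2 alone was called. Over all 14679 genes tested, 19.3% were called with a more positive and 17.5% with a more negative effect in NRK-52E. Nadk2 differed by -0.90 (SE 0.20, edgeR FDR 0.00107), and this call was kept in each of the 16 fits that left out a library, with values from -1.08 to -0.81. The fitted difference of Nmnat2 was -3.50 (SE 0.73, edgeR FDR 0.000711), also called in each of those 16 fits. Its NRK-49F side rests on 14 and 37 counts in all and was not tested in edgeR in that line alone. No difference between the lines is therefore read from this call. Leaving out N14 moved the fitted value to -5.52, which then rests on 2 counts in NRK-49F at pH 7.4. For Nmnat3 the NRK-49F effect could not be measured at these counts. The differences of Naprt (0.71, SE 0.46, edgeR FDR 0.208), Nadk (0.04, SE 0.10, edgeR FDR 0.783) and Parp1 (-0.20, SE 0.12, edgeR FDR 0.197) did not pass, except that Parp1 passed when libraries were scaled by their totals alone (-0.44).

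A wider list of 51 genes covered the rest of the pathway, of which 50 had a row. Genes of this list are named by a rule of size and level, apart from Tdo2, Ido1, Ido2, Kynu, Cd38, Mat2a, Sirt4, Sirt6 and Aox1, which were named after their values were seen. In NRK-52E, 34 were tested, 10 rose and 8 fell at pH 6.0, close to the 28.2% and 28.5% of all genes, and the median log2 change was 0.06 with a median size of 0.66, against 0.70 over all genes tested. In NRK-49F, 34 were tested, 10 rose and 6 fell (18.4% and 19.4% over all genes), with a median of 0.02 and a median size of 0.58, against 0.42 over all genes. At pH 7.4 the difference between the lines was called for 9 higher and 15 lower genes in NRK-52E among 36 (33.3% each over all genes), with a median of -0.16. At pH 6.0 it was called for 7 higher and 16 lower among 36 (28.6% and 31.3%), with a median of -0.38, while the medians over all genes were 0.03 and -0.03. The median sizes were 0.80 and 0.98, against 0.73 and 0.79 over all genes. The counts of both line comparisons include genes nearly absent from a line, such as Bst1 and Ido2 (lower in NRK-52E) and Sarm1 (higher). These entered by their counts in the other line, so the filter favoured the direction found, and counts without them are not given here. With the genes that had 0 to 3 counts in a group set to their bound or counting ratio, the list medians stayed at -0.16 and -0.38. That step keeps the direction of each gene, so it could hardly move a median and says nothing about the filter. In the interaction, 7 of 37 had a more positive and 8 a more negative effect in NRK-52E (19.3% and 17.5% over all genes), with a median of -0.06, also without the 4 genes that had so few counts in a group, a median size of 0.82 and 0.70 over all genes. The 7 include Slc22a13, which was below the filter on low counts in NRK-49F and entered by its counts in NRK-52E.

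Among the enzymes that make NAD from tryptophan, 10 were listed and at most 3 had enough counts to be tested in a line. Tdo2, Ido1 and Kynu had no count in any library, whereas Ido2, which like Tdo2 and Ido1 acts at the first step, had 391 and 1010 counts in NRK-49F at pH 7.4 and pH 6.0 (4.87 ± 1.77 and 9.30 ± 4.23 FPM) against 2 and 0 in NRK-52E. Nadsyn1, the NAD synthetase that closes this route and that from nicotinic acid, rose in NRK-52E from 17.1 ± 1.521 to 38.1 ± 6.19 FPM (1.13 on the log2 scale, SE 0.13, edgeR FDR 2.23e-05). In NRK-49F it was at 61.2 ± 1.31 and 68.7 ± 3.517 FPM and was not called, and the effects of the lines differed by 0.97 (SE 0.15, edgeR FDR 4.21e-05). Afmid, the formamidase of the same route, fell in NRK-52E from 11.1 ± 0.742 to 5.18 ± 1.84 FPM (edgeR FDR 0.00156).

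Of the 6 genes of nicotinamide riboside salvage and transport, 1 rose and 2 fell in NRK-52E among 4 tested (28.2% and 28.5% over all genes). Pnp, a phosphorylase that splits nucleosides including nicotinamide riboside, was at 207, 190, 166 and 193 FPM in NRK-52E at pH 7.4 and at 40.5, 36.3, 36.2 and 72.9 FPM at pH 6.0. In NRK-49F it was at 337, 326, 359 and 298 FPM at pH 7.4 and at 124, 137, 123 and 155 FPM at pH 6.0. It fell in both lines with no overlap, by 2.04 on the log2 scale in NRK-52E (SE 0.22, edgeR FDR 1.47e-05) and by 1.31 in NRK-49F (SE 0.11, edgeR FDR 1.61e-06). The riboside kinase Nmrk1 fell in NRK-52E from 4.25 ± 0.603 to 1.84 ± 0.628 FPM (edgeR FDR 0.00162). Slc22a13, a transporter of nicotinate, was at 0.890, 1.02, 0.953 and 0.524 FPM in NRK-52E at pH 7.4 and at 2.87, 3.19, 3.93 and 0.752 FPM at pH 6.0, where library N8 lay among the controls. It was called higher (edgeR FDR 0.00685), but the call was kept in 1 of the 8 fits that left out a library, the one without N8 (1.94). In the others, without N1, N2, N3, N4, N5, N6 or N7, the values ran from 1.39 to 1.73. It was also lost with scaling by library totals (1.43) and within number 21 (1.61) or 22 (1.62) of the column names. Within number 22 the NRK-52E calls of Pnp (-1.73), Nmrk1 (-1.05), Nadsyn1 (1.15) and Afmid (-0.91) were lost, and within number 21 that of Nmrk1 (-1.45).

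Among 7 enzymes that cleave NAD or its products, 4 of 6 tested fell in NRK-52E (28.5% over all genes). Sarm1, an NAD hydrolase known from axon degeneration, fell there from 16.4 ± 0.898 to 3.40 ± 0.947 FPM (-2.29 on the log2 scale, SE 0.20, edgeR FDR 2.66e-06), while NRK-49F held 5 counts at pH 7.4 and 6 at pH 6.0. Nt5e, an ectonucleotidase, fell in both lines, from 3.02 ± 0.455 to 0.713 ± 0.301 FPM in NRK-52E (edgeR FDR 0.000123) and from 7.13 ± 0.501 to 2.72 ± 0.505 FPM in NRK-49F (edgeR FDR 8.12e-05). Nudt13 fell in NRK-52E from 3.73 ± 0.413 to 1.11 ± 0.467 FPM (edgeR FDR 0.000287), and its effect differed between the lines by -2.38 (SE 0.33, edgeR FDR 1.04e-05). Bst1, a surface enzyme that hydrolyses NAD, had 2827 counts in NRK-49F at pH 7.4 and 1870 at pH 6.0 and none in NRK-52E. In NRK-49F, Bst1 fell from 36.4 ± 2.44 to 17.4 ± 5.76 FPM (edgeR FDR 0.000441) and Enpp1, which also splits nucleotides at the surface, rose from 46.6 ± 6.06 to 94.6 ± 30.1 FPM (edgeR FDR 0.000658). Calls lost within 1 number of the column names were those of Nt5e (-1.74, number 21) and Nudt13 (-1.31, number 22) in NRK-52E and of Nt5e (-1.27) and Bst1 (-0.67) in NRK-49F (number 21). Cd38 was low in NRK-52E, with means of 0.660 ± 0.195 FPM at pH 7.4 and 1.39 ± 0.355 FPM at pH 6.0, and had 4 and 0 counts in NRK-49F.

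Nnmt also draws on the methionine cycle, which supplies its methyl donor and clears the product. The 10 genes listed for this cycle include Ahcyl1 and Ahcyl2, relatives of its hydrolase, and whether these act in the cycle was not tested. Of the 10, 8 were tested in each line. Of these, 3 rose in NRK-52E (28.2% over all genes) and 5 rose and 1 fell in NRK-49F (18.4% and 19.4%). Ahcyl1, a relative of the hydrolase that clears S-adenosylhomocysteine, rose in both lines, from 175 ± 9.02 to 442 ± 49 FPM in NRK-52E (edgeR FDR 8.38e-07) and from 170 ± 14.2 to 451 ± 65.7 FPM in NRK-49F (edgeR FDR 1.95e-06). Mtr, the methionine synthase, was at 6.63, 8.14, 3.23 and 6.84 FPM in NRK-49F at pH 7.4 and at 39.4, 39.5, 35.2 and 39.6 FPM at pH 6.0, a rise of 2.60 on the log2 scale (SE 0.21, edgeR FDR 1.48e-06). Mat1a, which makes S-adenosylmethionine, had few counts, at 0.629 ± 0.0740 and 1.79 ± 0.203 FPM in NRK-52E at pH 7.4 and pH 6.0 and at 1.05 ± 0.118 and 0.285 ± 0.239 FPM in NRK-49F. It was called higher at pH 6.0 in NRK-52E (edgeR FDR 0.000301) and lower in NRK-49F (edgeR FDR 0.00583), with a called difference between the effects of 3.36 (SE 0.54, edgeR FDR 5.42e-05). The call in NRK-49F was lost in 6 of 8 fits, those without N9 (-1.86), N10 (-1.83), N12 (-1.73), N14 (-1.93), N15 (-1.89) or N16 (-1.54), and within number 20 (-1.47) or 21 (-2.31) of the column names. The call in NRK-52E was lost within number 21 (1.43) and 22 (1.51). The widely expressed Mat2a had means between 180 and 215 FPM and was not called for pH in either line.

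Among the 6 other sirtuins, which are deacylases that use NAD, 2 rose in NRK-52E (Sirt4 and Sirt6) and 1 fell in NRK-49F (Sirt4). Over all genes 28.2% rose in NRK-52E, and 18.4% rose and 19.4% fell in NRK-49F, also for the counts in the rest of this paragraph. The mitochondrial Sirt4 went from 9.42 ± 0.807 to 15.3 ± 1.29 FPM in NRK-52E (edgeR FDR 0.00108) and from 8.99 ± 0.670 to 6.00 ± 0.907 FPM in NRK-49F (edgeR FDR 0.00952), and the effects differed by 1.26 (SE 0.20, edgeR FDR 5.74e-05). The call of Sirt4 in NRK-49F was close to the limit. Sirt4, Sirt6 and Aox1 were not followed in the fits that left out a library. Of the 4 other polymerases and tankyrases counted, 1 rose in NRK-52E, and 2 rose and 1 fell in NRK-49F. The tankyrase Tnks rose in NRK-49F from 5.78 ± 2.13 to 17.8 ± 2.88 FPM (edgeR FDR 0.000154). Of the 3 genes of NADP transhydrogenation and NAD(P)HX repair, 2 rose in NRK-52E and 1 in NRK-49F. Among the 4 relatives of Nnmt and oxidases of its product, Aox1, an aldehyde oxidase that acts on methylnicotinamide, was at 407 ± 30.8 and 404 ± 93.7 FPM in NRK-49F at pH 7.4 and pH 6.0 and at 9.28 ± 0.999 and 6.06 ± 0.841 FPM in NRK-52E, where it was called lower at pH 6.0 (edgeR FDR 0.00576).

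**Figure D3:**
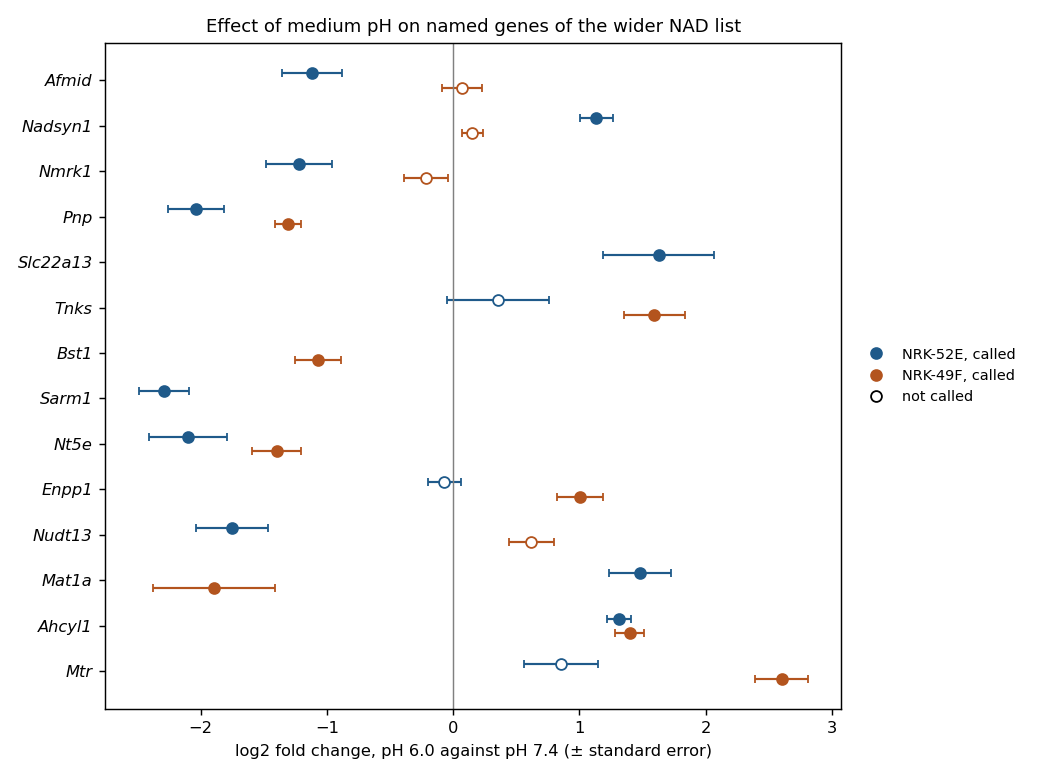
Log2 fold change from pH 7.4 to pH 6.0 (horizontal axis) with its standard error for the 14 genes of the wider list taken by a fixed rule of size and level (vertical axis), in NRK-52E (blue) and NRK-49F (orange). Filled points were called by both tools and open points were not. Pnp and Nt5e lie left of 0 and Ahcyl1 right of 0 in both lines.

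The genes whose pattern was most like that of Nnmt were sought by the root mean square difference of centred log2(FPM + 1) over the 16 libraries, among 10723 other genes with a symbol and a mean of at least 5 FPM in some group. The closest 5 were Plekhf1 (0.374), Irf7 (0.425), Zfp865 (0.445), Adamtsl2 (0.449) and Gbp2 (0.526). Plekhf1, an endosomal protein, had means of 18.1 and 68.4 FPM in NRK-52E at pH 7.4 and pH 6.0, and of 54.1 and 32.0 FPM in NRK-49F. Irf7, a transcription factor of the interferon response, had 27, 81.5, 79.1 and 48.4 FPM in the same order, and the interferon-induced GTPase Gbp2 had 23.6, 46.8, 79.4 and 22.4 FPM. Zfp865 had 5.44, 18.4, 14.8 and 6.81 FPM, and Adamtsl2 had 0.154, 6.01, 9.14 and 3.29 FPM. These genes were picked for their likeness, so no test is given. With a pseudocount of 0.25 in place of 1, 3 of the 5 stayed among the closest 5 (Plekhf1, Irf7 and Zfp865), while Adamtsl2 and Gbp2 did not.

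Promoter sequence from RefSeq (GRCr8) was at hand for 6 of the 10 genes. It is shown for the members called for pH in NRK-52E that have an entry, as the 250 bases before the start of the gene, 5′ to 3′ on the strand of the gene. The antioxidant response element core, TGACNNNGC on either strand, was searched in these bases and the 50 after the start, and matches are in capitals. It occurs in 12.1% of all 33469 promoters of the same length. Nadk2 had 1 match, on the opposite strand, and Nmnat1 and Nmnat2 had none in this window. Of the members with sequence that are not shown, Sirt1 had 1 match, on the strand of the gene, and Nmnat3 and Parp1 had none. The windows lie on GRCr8 at chr5:165211214-165211463 (minus strand) for Nmnat1, chr13:67655557-67655806 (plus strand) for Nmnat2 and chr2:59844604-59844853 (plus strand) for Nadk2.
Nmnat1: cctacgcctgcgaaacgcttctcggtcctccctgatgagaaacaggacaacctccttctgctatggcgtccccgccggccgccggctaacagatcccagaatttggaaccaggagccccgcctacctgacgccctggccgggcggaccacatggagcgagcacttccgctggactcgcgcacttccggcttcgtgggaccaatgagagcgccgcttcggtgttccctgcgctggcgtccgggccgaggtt
Nmnat2: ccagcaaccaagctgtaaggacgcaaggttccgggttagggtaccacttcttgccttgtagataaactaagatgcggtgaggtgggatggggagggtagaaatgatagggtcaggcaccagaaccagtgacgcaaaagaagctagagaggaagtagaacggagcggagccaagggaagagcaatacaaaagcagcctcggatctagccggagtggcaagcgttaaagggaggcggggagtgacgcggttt
Nadk2: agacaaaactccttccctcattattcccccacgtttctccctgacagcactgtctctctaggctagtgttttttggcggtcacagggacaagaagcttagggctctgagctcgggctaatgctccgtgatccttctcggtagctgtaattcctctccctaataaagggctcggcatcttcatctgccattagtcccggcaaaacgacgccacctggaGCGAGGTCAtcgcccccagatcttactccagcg
The promoter of Nmnat1 was rich in CpG, with 26 in these bases and a GC content of 65.6%, against 12 and 54.0% for Nmnat2, 12 and 53.6% for Nadk2, and medians of 5 and 51.2% over all promoters. This was not particular to Nmnat1. Of the members not shown, Parp1 had 27 and 68.8%, Sirt1 had 40 and 79.6%, and Nmnat3 had 16 and 56.8%.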

How the data were processed

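The deposited values are counts of fragments per gene, made by the authors from paired-end reads (2 × 150 bp) of poly(A)-enriched RNA, mapped to the rat genome rn6 and counted over Ensembl exons with featureCounts, multi-mapping fragments included, without normalization. The study's methods name tophat2 as the aligner and the submitters' processing notes name HISAT2 2.1.0; which made these counts was not settled here. Groups come from the sample labels, and no library was left out.

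Counts were scaled to FPM with TMM factors over 16 libraries. Each comparison was fitted in its own 8 libraries, and the interaction in all 16, with the quasi-likelihood test of edgeR 4.0.16 (TMM, filterByExpr) and the Wald test of DESeq2 1.42.0 (default size factors) in R 4.3.3, after a check on simulated counts. Each SE was taken from edgeR as the size of the log2 change over the root of F. Of the 5 comparisons none was paired in the main fit, since the sample labels match no library to another.

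Members and gene lists were chosen with earlier results of these data known. Named genes of the wider list were those called for pH with a log2 change of at least 1 in size and at least 1 FPM in the higher group, up to 3 per role and line. Alternatives were each tool alone, an FDR of 0.05, other scalings and filters, 1 fit of all libraries, the number in the column names as covariate or split, and leaving out each library. Fragments shared with near-identical gene copies or with overlapping genes on either strand could not be told apart, as the strand setting is not given in the sources used here. Pairs of libraries of 1 group differed by 6.41 to 97.8 times the sampling noise of counts (chi-square per degree of freedom), so none was treated as the same library.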

Additional observations from a re-analysis of the deposited data

Results flagged for a closer look

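In 9 of 109 groups of 4 libraries, over the 9 members, the 14 named genes of the wider list and the 5 genes most like Nnmt, 1 library lay far from the others, where chance alone flags about 1 in 20, or 5.45. That rate does not hold for groups near 0, where a single value above 0 is always flagged, as for 2 of the 9 (Nmnat3 and Sarm1), so the 2 numbers are not compared here. Nmnat1 was at 17.3 FPM in N3, below the other libraries of NRK-52E at pH 6.0 (20.8 to 21.5). In the control NRK-49F libraries, Nmnat2 was at 0.474 FPM in N14 (others at most 0.0572) and Nmnat3 at 0.0572 FPM in N9, which is 1 count (others 0). Sarm1 was at 0.195 FPM in N15 of NRK-49F at pH 6.0, where the others had 0. Library N8 of NRK-52E at pH 6.0 was high for Pnp, at 72.9 FPM (others 36.2 to 40.5), and for Nmrk1, at 2.77 FPM (others 1.43 to 1.62). Library N15 of NRK-49F at pH 6.0 was low for Mtr, at 35.2 FPM (others 39.4 to 39.6), and for Tnks, at 13.48 FPM (others 18.8 to 19.8). Enpp1 was at 55.7 FPM in N14 of NRK-49F at pH 7.4 (others 43.2 to 43.9).

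The pH effect differed between the lines, by the interaction test with an FDR below 0.01 in edgeR and DESeq2, for 10 of the genes screened, which were the 8 members other than Nnmt and the 14 genes of the wider list taken by the rule of size and level. Over all genes 19.3% were called with a more positive and 17.5% with a more negative effect in NRK-52E, and the 14 were taken for a called pH effect in a line. Nnmt was left out because the difference chose it, and other genes named in the report were not screened here. Written as the log2 effect in NRK-52E minus that in NRK-49F, it was lower in NRK-52E for Nmnat2 (-3.50), Nadk2 (-0.90), Afmid (-1.21), Nmrk1 (-1.02), Enpp1 (-1.09), Nudt13 (-2.38) and Mtr (-1.75). It was higher for Nadsyn1 (0.97), Slc22a13 (3.67) and Mat1a (3.36). The Nmrk1 difference was called in only 3 of the 16 fits that left out a library, with values from -1.30 to -0.91. Of the 10, Nmnat2 and Slc22a13 were below the filter on low counts in NRK-49F and entered this test by their counts in NRK-52E. Their NRK-49F sides rest on 14 and 37 counts in all for Nmnat2 and on 43 and 13 for Slc22a13. No difference between the lines is read from their calls.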

How the results depend on the processing

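No result changed its direction while called. Over the 8 members other than Nnmt, 683 of 712 recomputed log2 changes kept their side of the threshold, 21 lost the call and 8 gained one. Over the 14 named genes of the wider list these counts were 1196 of 1255, 45 and 14. Counts of calls moved by more than 1.5 times in few cases. Within the libraries that carry 1 of the numbers in the column names, fewer libraries enter each fit. For NRK-52E, within number 21 there were 2 members and 9 genes of the wider list called, within number 22 there were 1 member, 5 genes of the wider list and 2818 genes of all, against 4, 18 and 7800. For NRK-49F, within number 20 there were 2 members called, and within number 21 there were 7 genes of the wider list and 1976 of all, against 1, 16 and 5038. At an FDR below 0.05, 3 members were called in NRK-49F.

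Scaling by library totals moved the median log2 change of all genes to -0.21 in NRK-52E, to 0.34 and 0.12 in the comparisons of the lines at pH 7.4 and pH 6.0, and to -0.25 in the interaction. The share of calls that were higher went from 49.7% to 37.6% in NRK-52E, from 49.98% to 65.7% between the lines at pH 7.4, and from 52.4% to 33.8% in the interaction. The cause was not tested.

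The library numbers of the labels pair no libraries across groups. The number in the column names, which both pH groups of a line carry in 2 libraries each, served as a covariate: 3 of the 4 members called for pH in NRK-52E stayed called, without Nadk2, as did the 1 in NRK-49F and the 2 in the interaction, where Nmrk1 of the wider list lost its call. Naprt, Nmnat2 and Nmnat3 had few counts in NRK-49F. The pH effect there was not tested in edgeR for Nmnat2 and Nmnat3, which were below the filter on low counts. No measurement of NAD, its precursors or enzyme activity was used here, so the values are transcript levels alone.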
